A study of Homo sapiens with 24 samples.

Results

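RNA of day 30 cerebral organoids labelled with the KDM2A hairpin sh1 was compared with RNA of organoids labelled NC. The 6 libraries, 3 per label, belong to a series of 24, and every gene that passed a filter on low counts was kept, which left 19704 of the 61544 Ensembl genes in the organoid table. Of the tested genes, 17858 had a symbol. Cerebral organoids are aggregates of pluripotent cells steered toward brain tissue, here grown from the established embryonic stem cell line H9. Libraries labelled sh1 carry the genotype label KDM2A knockdown, and their treatment label names siRNA-1. Libraries labelled NC carry the genotype label WT and received a scrambled shRNA. Both groups shared the lentiviral delivery into stem cells (multiplicity of infection 20) and the selection with puromycin (1 µg/ml). Another hairpin label, sh4, entered the fit with 3 organoid libraries and is used for values set side by side.

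KDM2A removes methyl groups from lysine 36 of histone H3, and its zinc finger binds DNA rich in unmethylated CpG. An organoid of this kind normally passes from pluripotent cells through neuroepithelium to radial glia, the progenitors that give rise to forebrain neurons. Other products of pluripotent cells, such as mesenchyme, liver-like endoderm or choroid plexus, can arise beside the neural tissue and are recognised in bulk RNA by their marker genes. In such bulk samples fewer cells of a type and less RNA per cell cannot be told apart.

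Libraries held 17.3 to 17.7 M counts with sh1 and 15.9 to 17.4 M counts with NC. The share of counts on the mitochondrial genome was 3.14 to 3.29% with sh1 and 3.07 to 3.50% with NC, and the 10 most abundant genes held 6.73 to 7.41% with sh1 and 5.38 to 5.81% with NC. No pair of libraries was alike within sampling noise. The root mean square difference of log2 CPM (counts relative to the TMM-scaled library total) was 1.13 to 1.27 between an sh1 and an NC library, 0.456 to 0.549 within sh1 and 0.480 to 0.486 within NC. Whether libraries of a label came from separate cultures is not stated, so p-values measure the spread between libraries of the same label, which may be technical. The fit took this spread from the sh4 libraries too, not from the sh1 and NC libraries alone. TUBB2B, for example, had 453, 391 and 541 CPM with sh1 and 1441, 1181 and 1323 CPM with NC. It was more uneven with sh4 (53.9, 226 and 120 CPM), and the SE of its log2 fold change of sh1 over NC was 0.39.

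KDM2A itself was not lower in the libraries labelled sh1. The gene (chromosome 11, 67119269 to 67258087, plus strand, GRCh38) stood at 111, 117 and 103 CPM with sh1 and 99.9, 105 and 96.8 CPM with NC. The ranges overlapped narrowly, with the lowest sh1 library under the highest NC library. The log2 fold change of sh1 over NC was 0.14 (SE 0.068, 95% interval -0.02 to 0.29, adjusted p = 0.127, edgeR). In neural progenitor cells of the same series, KDM2A averaged 92.1 ± 4.15 CPM with sh1 and 186 ± 15.3 CPM with NC (SD, n = 5 each), a log2 fold change of -1.02 (SE 0.055, adjusted p = 5.12e-12, edgeR). The KDM2A effect in organoids exceeded that in progenitor cells by 1.12 on the log2 scale (SE 0.091, adjusted p = 1.48e-10, edgeR). The 95% interval was 0.93 to 1.31, from 1 model of both systems over 10034 shared genes that passed the filter. Every direction given for organoids is that of libraries labelled sh1, and none rests on a measured loss of KDM2A RNA.

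**Figure D1:**
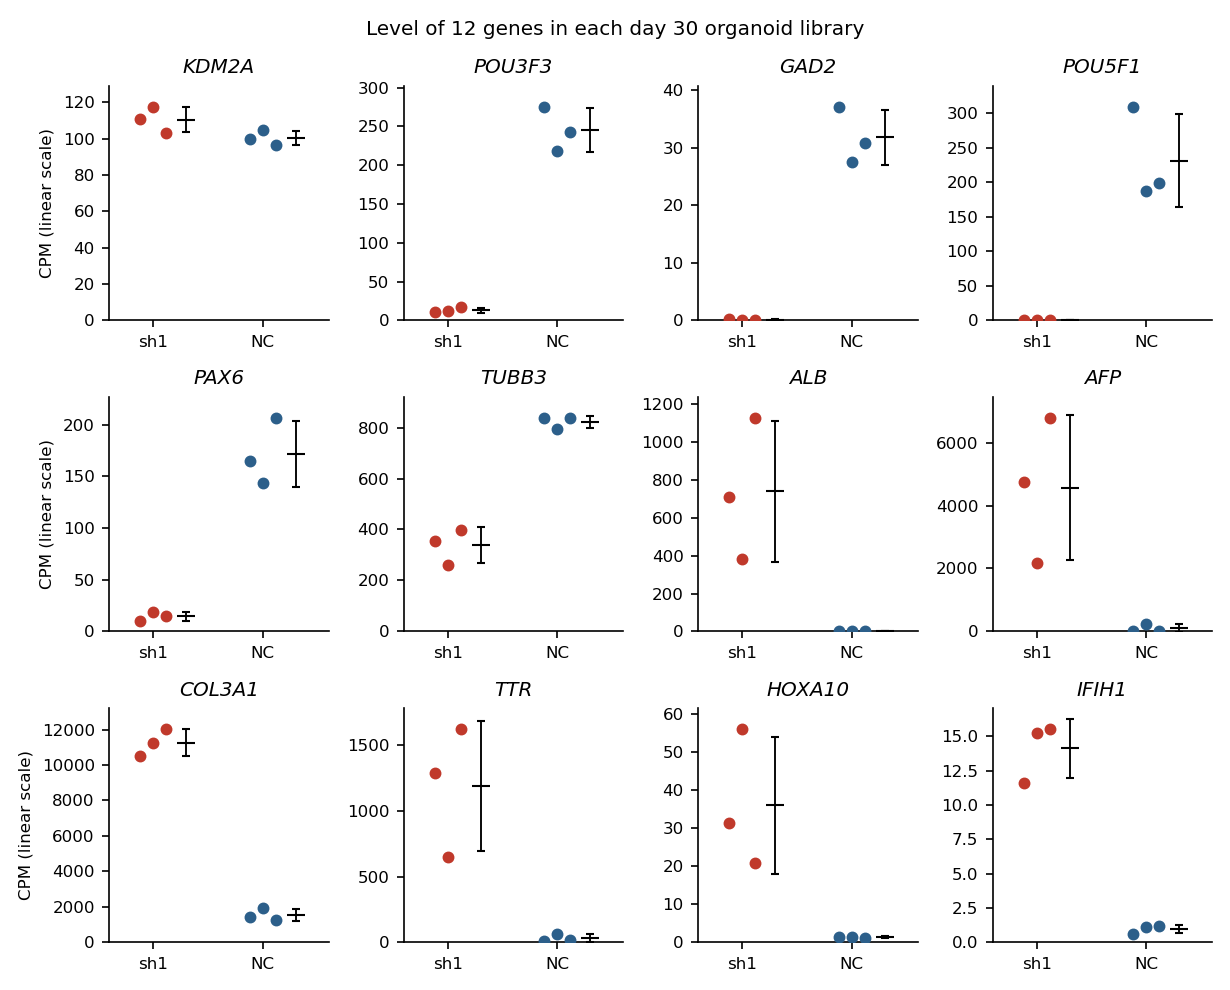
Level of 12 genes in CPM on linear axes from 0, with 1 point for each library labelled sh1 (red, left) or NC (blue, right) and black bars for the mean and SD of 3 libraries. KDM2A lies at 103 to 117 CPM with sh1 and 96.8 to 105 CPM with NC, while GAD2 lies near 0 in all sh1 libraries and ALB near 0 in all NC libraries.

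The transcriptomes nevertheless differed widely between the labels. A gene was called where its adjusted p was under 0.05 and its log2 fold change at least 1 in size. With sh1, 2385 genes were higher (12.1% of the genes tested) and 1561 were lower (7.92%), 20% in all by edgeR. The adjusted p alone was under the threshold for 9199 genes (46.7%). The sh1 and NC ranges did not overlap for 12227 genes (62.1%), with sh1 above NC in 32.3% of all tested genes and below it in 29.8%. The median size of the log2 fold change was 1.99 among higher genes and 1.62 among lower ones, and 338 higher and 154 lower genes passed a size of 4. The median log2 fold change of all tested genes was 0.02. Of 15962 protein-coding genes 2005 were higher and 1140 lower, and of 2403 long non-coding genes 271 were higher and 261 lower.

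**Figure D2:**
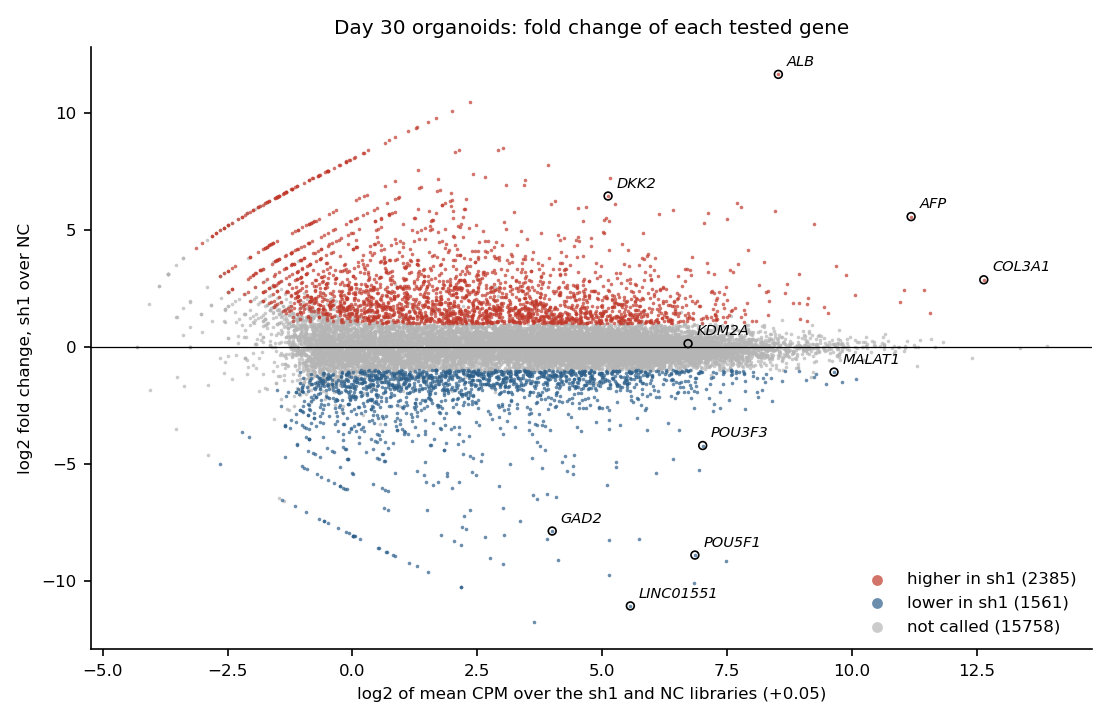
Log2 fold change of sh1 over NC (vertical axis) against mean expression over both groups on a log2 CPM axis (horizontal) for the 19704 tested genes, with the 2385 higher genes in red, the 1561 lower genes in blue and the others in grey. ALB and AFP stand out above and LINC01551 and POU5F1 below, while KDM2A lies near 0.

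LINC01551, a long non-coding gene of chromosome 14, fell to near 0 with sh1. It had 0, 0 and 2 counts with sh1 and 1830, 1670 and 1596 counts with NC, without overlap. The ratio of NC over sh1 was 2584 with an exact 95% interval of 715 to 21346, which like all such intervals covers counting error only.

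Genes of the ventral forebrain and of its inhibitory neurons were lower with sh1. Of 20 tested genes of the ventral forebrain and hypothalamus 16 fell, 1 rose and 3 did not pass, with a median log2 fold change of -2.99. GAD2, a GABA-synthesising enzyme, had 0.165, 0.11 and 0.11 CPM with sh1 and 37, 27.5 and 30.8 CPM with NC. Its partner enzyme GAD1 averaged 2.1 ± 0.274 CPM with sh1 and 74.9 ± 9.85 CPM with NC (SD, n = 3 each), a log2 fold change of -5.15 (adjusted p = 1.25e-07, edgeR). SLC32A1, the vesicular GABA transporter, changed by -6.34. DLX5, a homeobox factor of interneurons, averaged 1.19 ± 0.352 CPM with sh1 and 41.2 ± 5.49 CPM with NC. None of these 4 genes overlapped between the labels, which was also so for 62.1% of all tested genes. The values of DLX6 (-6.5) and DLX6-AS1 (-9.16) are less certain, because the antisense gene spans DLX6 on chromosome 7. SST, the neuropeptide somatostatin, was the member that rose, with 45.5, 77.8 and 44.6 CPM with sh1 and 15.4, 14.2 and 21.8 CPM with NC (log2 fold change 1.71, adjusted p = 0.000298, edgeR).

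Dorsal forebrain genes divided. Of 23 tested, 9 fell and 3 rose, with a median of -0.46 that was -0.18 without sh1 library 2 and -0.81 without sh1 library 3. POU3F3, a POU-domain factor of cortex, averaged 13.1 ± 3.16 CPM with sh1 and 245 ± 28.1 CPM with NC (SD, n = 3 each). LHX2, which specifies cortex, had 6.42, 3.35 and 20 CPM with sh1 and 59.2, 62.6 and 54.9 CPM with NC. TBR1, a factor of early cortical neurons, had 2.8, 1.43 and 10.8 CPM with sh1 and 18.9, 27.4 and 25.1 CPM with NC. In LHX2 and TBR1 the third sh1 library was the highest of its group and still under every NC library. The members that rose were DMRT3 (2.79) and the nuclear factor I genes NFIB (2.11) and NFIA (1.76).

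Genes of neural progenitors fell in part. Of 26 progenitor and radial glia genes 12 fell and 1 rose, with a median of -0.96. PAX6, a radial glial transcription factor, had 10.4, 18.5 and 14.8 CPM with sh1 and 165, 143 and 206 CPM with NC. HES5, a Notch target, changed by -3.02, and the SOXB1 factors SOX3, SOX1 and SOX2 changed by -3.03, -2.64 and -1.09. The filament vimentin (VIM) averaged 2154 ± 56.1 CPM with sh1 and 2109 ± 197 CPM with NC and was not called, and nestin (NES) changed by -0.53 without a call. The summed level of the list was 3986 to 4153 CPM with sh1 and 5261 to 5909 CPM with NC.

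Among 31 neuron genes 10 fell, 1 rose and 20 did not pass, with a median of -0.94. The member that rose, NEFM, a neurofilament subunit, had 924, 813 and 831 CPM with sh1 and 207, 211 and 313 CPM with NC (log2 fold change 1.81, adjusted p = 0.00992, edgeR). MAP2, a dendritic microtubule protein, averaged 128 ± 33.8 CPM with sh1 and 461 ± 18.5 CPM with NC (SD, n = 3 each). TUBB3, the neuronal tubulin, had 356, 262 and 399 CPM with sh1 and 836, 795 and 836 CPM with NC, without overlap, yet its adjusted p was 0.0713 (edgeR). DCX (-1.08) and MAPT (-1.01) likewise did not overlap and were not called. In a fit of the sh1 and NC libraries alone, 15 neuron genes were lower. Summed neuron markers stood at 3873 to 4709 CPM with sh1 and 6294 to 6910 CPM with NC.

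Of 42 synapse and ion channel genes 16 fell and 2 rose, with a median of -0.82. The glutamate receptor subunit GRIN2B averaged 0.86 ± 0.127 CPM with sh1 and 23.2 ± 3.79 CPM with NC (SD, n = 3 each), and GRIA2, an AMPA receptor subunit, averaged 15.1 ± 0.858 CPM with sh1 and 145 ± 10.8 CPM with NC. GRIN2A, a sister subunit of GRIN2B, ran the other way, with 24.1, 18.5 and 23.3 CPM with sh1 and 4.75, 6.77 and 3.52 CPM with NC. The vesicular glutamate transporters SLC17A6 and SLC17A7 changed by 0.12 and -0.05 without a call.

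Pluripotency genes moved in 1 direction. Of 20 tested, 18 fell and 0 rose, with a median of -3.3, and the summed level was 279 to 328 CPM with sh1 and 1344 to 1900 CPM with NC. POU5F1, the core factor of pluripotent cells, had 0.329, 0.0549 and 1.04 CPM with sh1 and 308, 187 and 198 CPM with NC (log2 fold change -8.91, SE 0.51, adjusted p = 2.93e-06, edgeR). NANOG had in all 1 with sh1 and 861 with NC counts, a ratio of NC over sh1 of 873 with an exact 95% interval of 156 to 34525. Both genes have processed copies elsewhere in the genome with which reads may be shared. LIN28A, which blocks let-7 maturation, averaged 6.24 ± 0.581 CPM with sh1 and 240 ± 22.2 CPM with NC (SD, n = 3 each), and TDGF1, a co-receptor of NODAL, changed by -5.93. UTF1, a chromatin factor of stem cells, had 0 counts with sh1 and was at least 56.1-fold lower, against a floor of 3 counts over the group. DNMT3B, the de novo DNA methyltransferase of early embryonic cells, had 36.7, 40.9 and 39.8 CPM with sh1 and 341, 199 and 238 CPM with NC. The members that did not pass were LEFTY2 (-0.26) and FOXD3-AS1 (-1.16). At day 30 it was thus the NC libraries that carried most POU5F1 and NANOG RNA.

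The host transcript of the miR-302 cluster was lower as well. MIR302CHG had 0.219, 0.769 and 0.164 CPM with sh1 and 45.6, 19.5 and 35.1 CPM with NC (log2 fold change -6.41, SE 0.54, adjusted p = 1.91e-05, edgeR). Its hairpins (chr4:112647874-112648557, minus strand, GRCh38) encode well known microRNAs of human pluripotent cells. The gene lies antisense to another gene, and the mature microRNAs were not measured by these poly(A) libraries. Their sequences from RefSeq (GRCh38.p14) are given 5′ to 3′ with the seed, bases 2 to 8, in capitals, because the 4 members of the 302 family share 1 seed while miR-367 has another.
hsa-miR-302a-3p: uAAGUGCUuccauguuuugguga
hsa-miR-302b-3p: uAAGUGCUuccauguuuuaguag
hsa-miR-302c-3p: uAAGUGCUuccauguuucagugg
hsa-miR-302d-3p: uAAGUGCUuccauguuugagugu
hsa-miR-367-3p: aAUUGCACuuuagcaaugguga

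Plasma protein genes of liver-like cells rose by the largest folds. Of 27 genes of mesoderm, endoderm and liver 16 rose, 6 fell and 5 did not pass, with a median of 2.63. ALB, serum albumin (chromosome 4), had 707, 384 and 1124 CPM with sh1 and 0.0552, 0.373 and 0.235 CPM with NC (log2 fold change 11.65, SE 0.91, adjusted p = 1.23e-05, edgeR). AFP, its fetal relative, had 4756, 2178 and 6774 CPM with sh1 and 23.3, 239 and 26.2 CPM with NC (log2 fold change 5.57, adjusted p = 0.0019, edgeR). NC library 2 held the most AFP of its group, and without it the log2 fold change was 7.53. The fibrinogen chains FGA, FGB and FGG changed by 5.99, 5.8 and 6.16, and the protease inhibitor SERPINA1 by 5.49.

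The libraries of each label were uneven in these genes. Summed over 12 plasma protein genes, the level was 10507, 4895 and 14312 CPM in the sh1 libraries and 93.5, 571 and 243 CPM in the NC libraries. The second sh1 library was the lowest of its group and the second NC library the highest of its group, with no overlap between labels. HNF4A, a liver transcription factor, had 14.7, 10.2 and 17.9 CPM with sh1 and 1.33, 5.81 and 8.27 CPM with NC and was not called (adjusted p = 0.0568, edgeR). GATA6, a factor of endoderm and mesoderm, averaged 79.7 ± 14.5 CPM with sh1 and 20.6 ± 2.06 CPM with NC (SD, n = 3 each), while GATA4 changed by -1.3. Among early mesoderm factors, TBXT had 0 counts with sh1 and was at least 32.8-fold lower, and MIXL1 changed by -3.5. GSC, of the organiser, ran the other way, with in all 127 with sh1 and 2 with NC counts and a ratio of sh1 over NC of 62.6 (exact 95% interval 17 to 523).

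The promoters of the plasma protein genes were searched for letters known from liver factors. RefSeq (GRCh38.p14) promoter entries were found for 8 of the 12 genes, and the 250 bases before the start site were read on both strands. GTTAAT occurred in 4 of the 8 and in 6.22% of 27305 promoters of the same length. TGTTTAC, a FOXA motif, occurred in 1 of 8 (APOA2) and in 2.98% of all, and CAAAGTTCA, an HNF4 motif, in 0 of 8 and 0.26% of all. The 4 promoters that hold GTTAAT on either strand are printed 5′ to 3′ on the strand of the gene, with the match in capitals. The regions are chr4:73404037-73404286 for ALB (plus strand), chr4:73435971-73436220 for AFP (plus), chr4:154590743-154590992 for FGA (minus) and chr4:154562730-154562979 for FGB (plus).
ALB: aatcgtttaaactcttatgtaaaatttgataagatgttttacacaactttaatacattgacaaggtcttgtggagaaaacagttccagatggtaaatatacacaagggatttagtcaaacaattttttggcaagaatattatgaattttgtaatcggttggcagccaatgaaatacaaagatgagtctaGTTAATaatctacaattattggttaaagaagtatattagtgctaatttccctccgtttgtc
AFP: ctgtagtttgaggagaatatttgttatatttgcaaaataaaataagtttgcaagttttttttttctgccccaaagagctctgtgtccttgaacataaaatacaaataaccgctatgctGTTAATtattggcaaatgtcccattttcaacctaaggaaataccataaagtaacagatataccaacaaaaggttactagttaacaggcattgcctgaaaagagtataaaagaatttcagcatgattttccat
FGA: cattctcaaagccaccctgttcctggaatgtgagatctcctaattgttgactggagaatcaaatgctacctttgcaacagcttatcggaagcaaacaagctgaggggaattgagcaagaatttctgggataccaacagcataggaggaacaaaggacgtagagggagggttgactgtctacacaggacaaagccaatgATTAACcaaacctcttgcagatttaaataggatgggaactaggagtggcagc
FGB: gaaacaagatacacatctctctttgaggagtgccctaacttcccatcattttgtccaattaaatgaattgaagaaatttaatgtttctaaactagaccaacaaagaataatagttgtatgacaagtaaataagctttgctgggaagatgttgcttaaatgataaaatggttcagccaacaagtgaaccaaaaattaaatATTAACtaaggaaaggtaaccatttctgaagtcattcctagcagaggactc
The match began 61 bases before the start site in ALB, 132 in AFP, 52 in FGA and 51 in FGB. A match describes the sequence and is not a shown binding site.

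Mesenchyme genes rose broadly. Of 30 tested, 22 rose and 0 fell, with a median of 2.08, and their summed level was 31519 to 35014 CPM with sh1 and 6635 to 9004 CPM with NC. COL3A1, a fibrillar collagen, averaged 11254 ± 764 CPM with sh1 and 1543 ± 348 CPM with NC (SD, n = 3 each), a log2 fold change of 2.87 (SE 0.16, adjusted p = 2.84e-06, edgeR). The type I collagen chains COL1A1 and COL1A2 changed by 2.44 and 2.42, and the matrix proteins POSTN, DCN and SPARC by 3.07, 3.11 and 1.91. TWIST1, a mesenchymal transcription factor, had 47.4, 71.1 and 38.5 CPM with sh1 and 1.55, 3.68 and 2.7 CPM with NC. ACTA2 and THY1, also expressed by fibroblasts, changed by 0.77 and 0.22 and were not called. Among the highest folds of all genes were FAP, a fibroblast protease, with 29.6, 36.9 and 26.6 CPM with sh1 and 0.11, 0.693 and 0.528 CPM with NC, and TBX5, a factor of heart and forelimb mesoderm, with 17.4, 19.4 and 12.7 CPM with sh1 and 0.0552, 0.213 and 0.117 CPM with NC. In both of these genes every sh1 library exceeded every NC library.

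**Figure D3:**
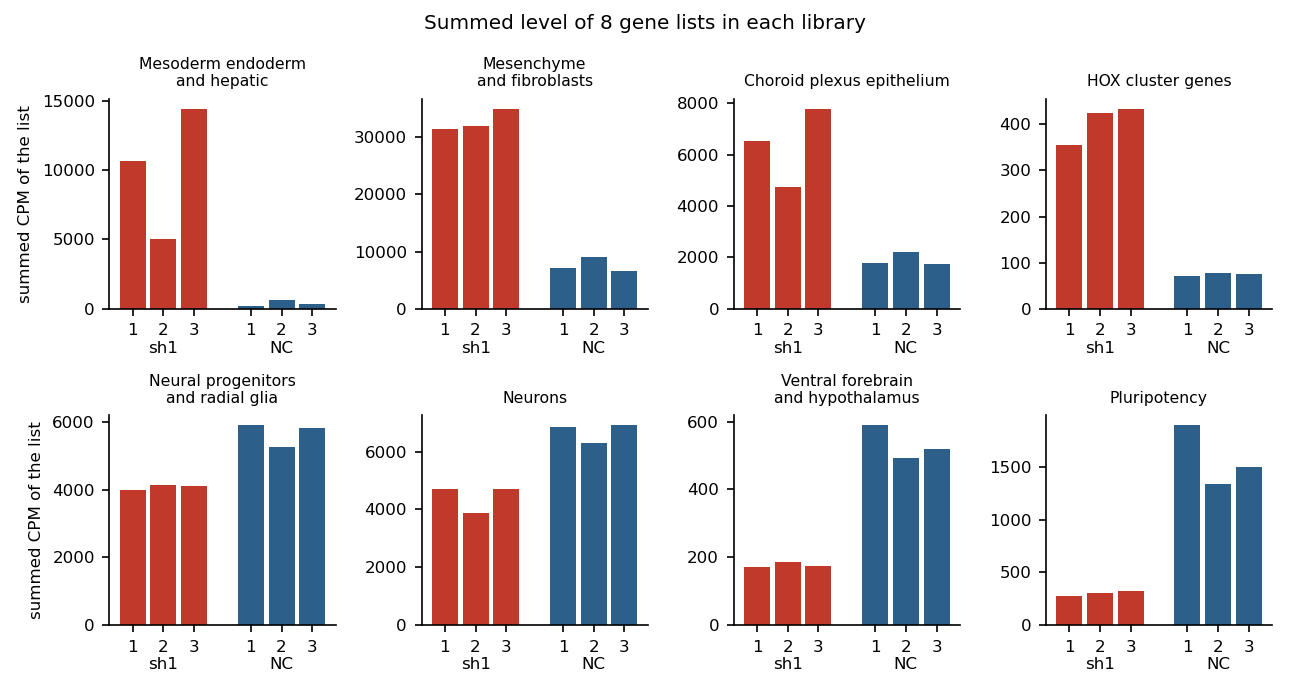
Bars give the summed CPM of 8 gene lists in each of the 3 sh1 libraries (red, left) and the 3 NC libraries (blue, right), on linear axes from 0. Hepatic and mesenchymal sums are higher and pluripotency and ventral forebrain sums lower in every sh1 library, and the hepatic sum of sh1 library 2 is the lowest of its group.

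Hosts of microRNAs were sought among called non-coding genes only, so each host found had to differ between the labels. Called non-coding genes with a mean over 2 CPM in either group were searched for microRNA hairpins. Of these genes, 15 contained a hairpin, 7 higher and 8 lower with sh1. The share of hosts among all tested non-coding genes was not counted. DNM3OS, whose transcript on chromosome 1 holds miR-199a and miR-214, averaged 63.8 CPM with sh1 and 1.5 CPM with NC (log2 fold change 5.42, SE 0.29, adjusted p = 2.5e-06, edgeR). CARMN, the host of the smooth muscle microRNAs miR-143 and miR-145 on chromosome 5, changed by 3.35. Among the lower ones LINC00461, which holds a copy of the neural microRNA miR-9, averaged 39.8 CPM with sh1 and 181 CPM with NC (adjusted p = 0.00318, edgeR). These hosts were chosen after their values were seen, and their mature products were not measured. The RefSeq mature sequences are shown because each carries a seed of its own.
hsa-miR-199a-3p: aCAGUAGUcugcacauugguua
hsa-miR-214-3p: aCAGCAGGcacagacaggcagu
hsa-miR-143-3p: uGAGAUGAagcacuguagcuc
hsa-miR-145-5p: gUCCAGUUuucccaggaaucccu
hsa-miR-9-5p: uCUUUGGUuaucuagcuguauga

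HOX genes, which give cells their position along the trunk, rose in all 4 clusters. Of 34 tested, 27 rose and 0 fell, with a median of 3.1. HOXA10 had 31.2, 55.9 and 20.7 CPM with sh1 and 1.44, 1.55 and 1.23 CPM with NC (log2 fold change 4.67, adjusted p = 4.2e-05, edgeR). HOXC6 had 19.1, 20.6 and 21.1 CPM with sh1 and 1.05, 1.92 and 1.52 CPM with NC. Neither gene overlapped between the labels. HOXD8 had 0 counts with NC and was at least 43.1-fold higher with sh1. HOXA5 had in all 577 with sh1 and 3 with NC counts, a ratio of sh1 over NC of 190 (exact 95% interval 64.6 to 922). All 6 tested genes of cluster C rose, 9 of 11 in cluster A, 6 of 10 in cluster B and 6 of 7 in cluster D.

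The most anterior HOX genes were among those not called, with HOXA2 at 0.18, HOXB1 at 0.58 and HOXB2 at 0.9. The summed level of cluster A was 115, 186 and 93.4 CPM with sh1 and 14.1, 10.8 and 13.8 CPM with NC, highest in the second sh1 library. That of cluster B was 158, 146 and 244 CPM with sh1 and 49.7, 57.1 and 55.6 CPM with NC, highest in the third. Cluster C summed to 63.5, 70.3 and 72.8 CPM with sh1 and 4.42, 8.11 and 4.4 CPM with NC, and cluster D to 16.9, 19.2 and 23.5 CPM with sh1 and 1.66, 1.81 and 1.06 CPM with NC. No cluster sum overlapped between the labels. HOX genes lie close together and overlap, so reads of neighbours may be mixed.

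**Figure D4:**
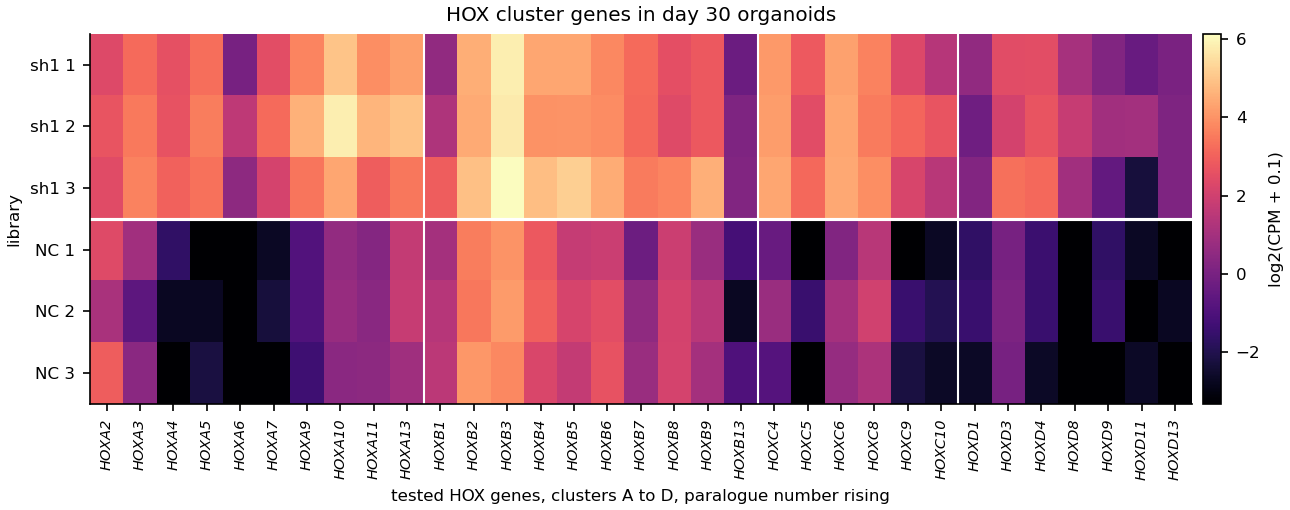
Colour gives log2(CPM + 0.1) of the tested HOX genes (columns, clusters A to D by paralogue number) in the 3 sh1 libraries (upper rows) and the 3 NC libraries (lower rows). Of the 34 tested genes, 1 of them not drawn, 31 are higher in every sh1 library than in every NC library. The same holds for 32.3% of all tested genes. HOXA2 and HOXB1 overlap.

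Genes of retinoic acid, a signal that sets HOX expression in the embryo, rose in part, while 3 degrading enzymes fell. A link to the HOX genes was not tested. Of 19 tested, 11 rose and 3 fell, with a median of 1.46. The synthesising enzyme ALDH1A2 had 35.2, 72.6 and 23.5 CPM with sh1 and 2.43, 1.39 and 1.23 CPM with NC. The receptor RARB, itself a target of the pathway, had 49.7, 68 and 54.9 CPM with sh1 and 5.08, 5.33 and 5.51 CPM with NC, and the retinol importer STRA6 changed by 2.27. The genes that fell were the degrading enzymes CYP26C1 (-3.75), CYP26A1 (-1.58) and CYP26B1 (-1.09). Without NC library 1 the list held 1 lower gene in place of 3. The call of CYP26B1 was lost without any 1 of 4 libraries.

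Dorsal midline and choroid plexus genes rose. Of 22 choroid plexus genes 17 rose and 0 fell (median 1.65), and of 23 roof plate and cortical hem genes 10 rose and 2 fell (median 0.89). HTR2C, a serotonin receptor of choroid epithelium, had 59.9, 43.2 and 54.1 CPM with sh1 and 5.47, 4.96 and 6.68 CPM with NC (log2 fold change 3.2, adjusted p = 3.36e-05, edgeR). TTR, the thyroxine carrier, changed by 5.24. It is made by choroid plexus and by liver, and like the plasma protein genes it was lowest of its group in sh1 library 2 and highest of its group in NC library 2. The roof plate genes LMX1A, RSPO2 and WNT3A changed by 3.84, 3.79 and 2.5.

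Midbrain and hindbrain factors divided, with 7 of 28 higher and 4 lower (median 0.53). EN1 and WNT1, of the midbrain boundary, changed by 2.63 and 2.45, and GBX2 and PAX2 by -2.55 and -3.04. OTX2, a factor of forebrain, midbrain and choroid plexus, had 55.6, 48.4 and 67.8 CPM with sh1 and 56, 62.4 and 50.8 CPM with NC, with overlapping ranges. The lower count was 2 in fits without any 1 of 5 libraries, all but sh1 library 1.

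Ciliated markers rose, and glial markers rose in part. Of 19 ependyma and cilia genes 12 rose and 0 fell (median 3.15), or 1 fell without sh1 library 3. FOXJ1, the regulator of motile cilia, had 31.7, 16 and 24.4 CPM with sh1 and 1.16, 2.08 and 3.87 CPM with NC. Among 19 astroglia and oligodendrocyte genes 8 rose and 1 fell (median 1.02). The list summed to 1592 to 1910 CPM with sh1 and 1215 to 1367 CPM with NC. The member that fell was SLC1A2, an astrocyte glutamate transporter (log2 fold change -1.69, adjusted p = 0.00115, edgeR). It averaged 18.7 ± 5.9 CPM with sh1 and 60.3 ± 3.93 CPM with NC (SD, n = 3 each). GFAP, an astrocyte filament, had 20 counts with sh1 and 22 with NC and was not tested. S100B, a calcium-binding protein of glia, had 76, 51.9 and 69.3 CPM with sh1 and 0.994, 1.33 and 2.05 CPM with NC (log2 fold change 5.49, adjusted p = 5.31e-06, edgeR). SPARCL1, a matrix protein of astrocytes and vessels, changed by 4.91. The oligodendrocyte factor OLIG2 and the astrocyte water channel AQP4 changed by -1.64 and 0.44 and were not called.

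Markers of neural crest and peripheral lineages rose in part, 8 higher and 2 lower of 24 (median 0.83). NGFR, a neurotrophin receptor of crest cells, had 168, 131 and 150 CPM with sh1 and 32.3, 35 and 37.4 CPM with NC. PRPH, a filament of peripheral neurons, changed by 3.05. SOX10, a crest and glial factor, had 102, 63.9 and 89.4 CPM with sh1 and 19.9, 36.9 and 32.7 CPM with NC, without overlap, but was not called (adjusted p = 0.0762, edgeR). In retina and pigment genes 4 of 12 rose and 1 fell, or 2 fell without sh1 library 3. MLANA, a melanosome protein, had in all 362 with sh1 and 3 with NC counts, a ratio of sh1 over NC of 119 with an exact 95% interval of 40.4 to 580.

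Vessel and blood cell genes rose in part, at low levels. The list summed to 203 to 300 CPM with sh1 and 179 to 227 CPM with NC, with overlapping ranges. Of 26 endothelium, blood and microglia genes 14 rose and 1 fell (median 1.5), or 2 fell without sh1 library 1, sh1 library 2 or NC library 1. ERG, an endothelial transcription factor, had 15.6, 24 and 12.7 CPM with sh1 and 1.99, 2.83 and 2.93 CPM with NC, and the adhesion molecule PECAM1 changed by 1.65. KDR and CDH5, further endothelial genes, changed by -0.09 and 0.62 and were not called. The complement genes C1QA and C1QB, typical of macrophages, had 0 counts in every NC library and were at least 30.9-fold and 34.8-fold higher with sh1. Their counts were uneven, with 67, 1 and 26 counts with sh1 and 0, 0 and 0 counts with NC for C1QA. HBE1, an embryonic globin, had 0.548, 1.21 and 0.219 CPM with sh1 and 1.44, 18.8 and 7.74 CPM with NC, although globin genes are near-identical.

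Muscle genes were mixed, with 4 of 17 higher and 5 lower. The muscle filament desmin (DES) averaged 58.9 ± 8.11 CPM with sh1 and 11.3 ± 0.312 CPM with NC (SD, n = 3 each), while cardiac actin (ACTC1) averaged 4.1 ± 0.748 CPM with sh1 and 21.4 ± 2.54 CPM with NC. Of 16 cartilage and bone genes 5 were higher and 3 lower, with RUNX2, a bone factor, at 3.64 and HAPLN1, a matrix link protein, at -1.68. Of 21 epithelium genes 6 were lower and 1 was higher. CLDN6, a tight junction gene of embryonic epithelium, had 19.7, 10.9 and 17.6 CPM with sh1 and 96.5, 70.3 and 79.2 CPM with NC, and ESRP1, an epithelial splicing regulator, changed by -2.22. KRT8, CDH1 and EPCAM changed by -0.28, -0.59 and -0.7 without a call.

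**Figure D5:**
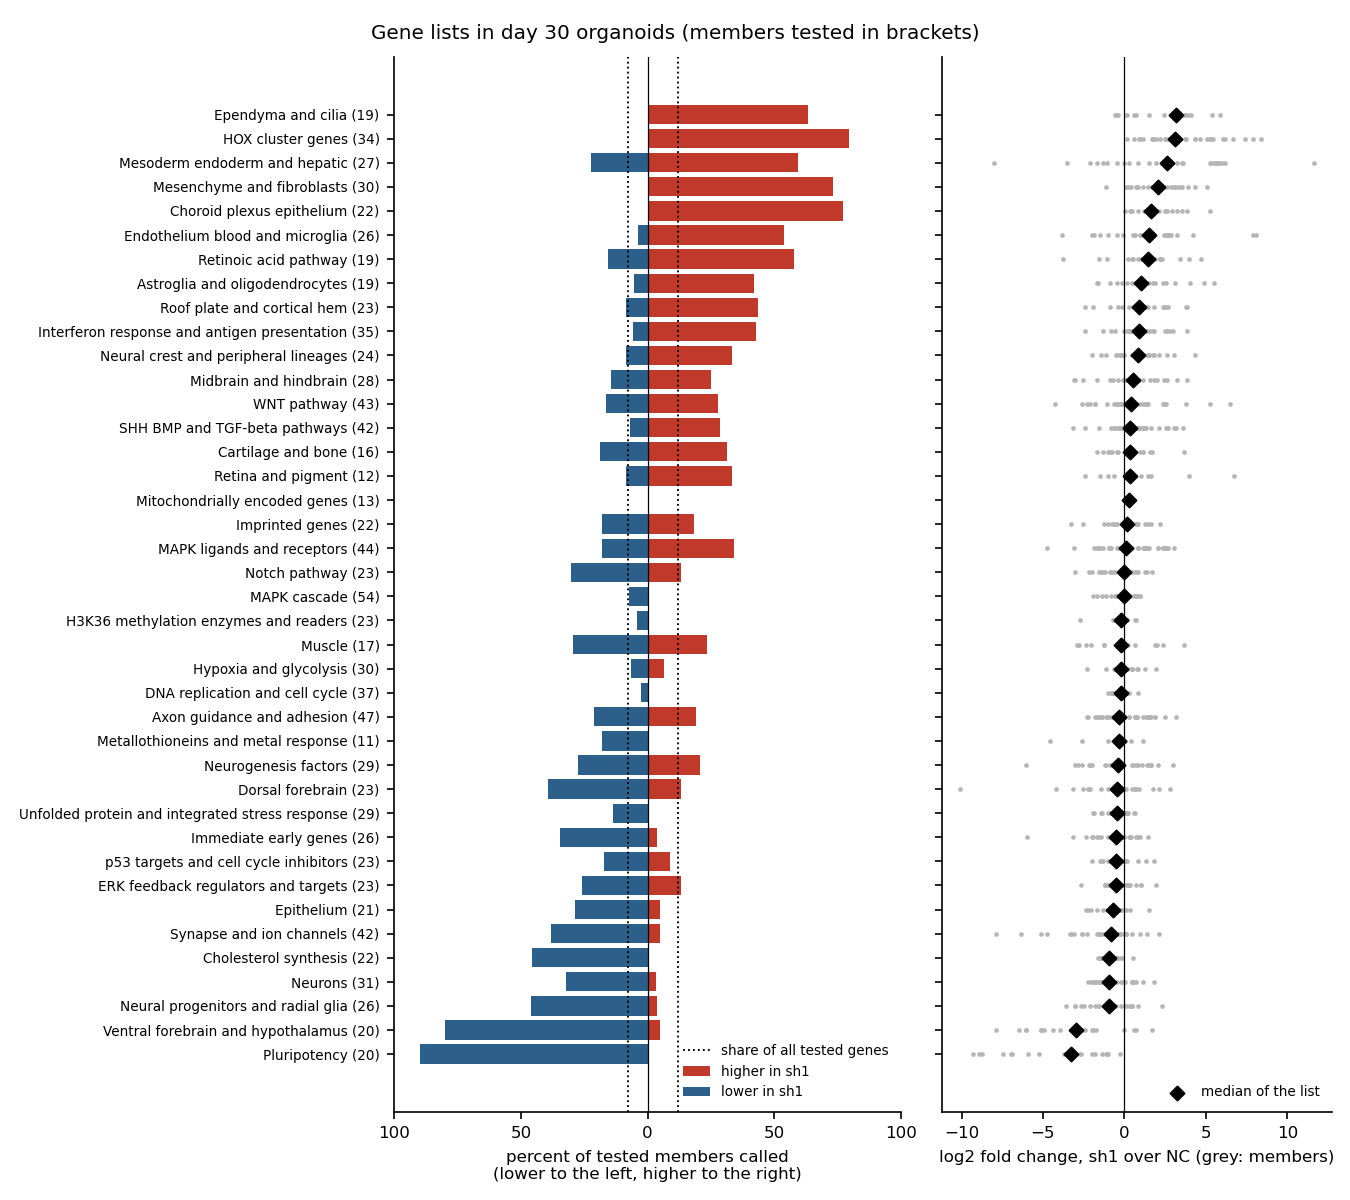
Left, the percent of tested members of each of 40 gene lists called higher (red, right of 0) or lower (blue, left of 0) with sh1, with dotted lines at the shares of all tested genes (12.1% and 7.92%); right, the log2 fold change of each member (grey) and the list median (diamond). Pluripotency has the lowest median at -3.3, and ependyma and HOX genes have medians above 3.

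The series title names MAPK signalling, and its genes are given by role. Among 44 ligands and receptors 15 were higher and 8 lower (median 0.11), and among 54 cascade genes 0 were higher and 4 lower (median -0.03). The 4 lower cascade genes are 7.41% of the list, near the 7.92% lower among all tested genes. Cascade genes called higher numbered 1 without sh1 library 1 or 2 and 2 without NC library 2. PDGFRB, a growth factor receptor of mesenchyme, had 176, 187 and 136 CPM with sh1 and 27.1, 24.5 and 31.4 CPM with NC, and NTRK2, a neurotrophin receptor, averaged 518 ± 100 CPM with sh1 and 102 ± 21.3 CPM with NC (SD, n = 3 each). EGFR, which binds epidermal growth factor, had a log2 fold change of 2.06. Among ligands, FGF2 had 17.9, 20.3 and 19 CPM with sh1 and 64.5, 61.7 and 61.6 CPM with NC, and FGF19 had 0.384, 0.33 and 0.384 CPM with sh1 and 9.94, 11.7 and 8.74 CPM with NC, neither with overlap. The kinase ERK1 (MAPK3) changed by 0.04 and was not called. The cascade genes that fell were the small GTPase RRAS2 (-1.15), the adaptor SHC3 (-1.38), the scaffold KSR2 (-1.95) and the RAS regulator RASAL1 (-1.71).

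Feedback regulators and targets of ERK gave no single direction, with 3 higher and 6 lower of 23 (median -0.5). Among all tested genes 12.1% were higher and 7.92% lower. ETV4, an ETS factor downstream of FGF, had 4.17, 3.02 and 5.21 CPM with sh1 and 31.3, 23.3 and 23.3 CPM with NC (log2 fold change -2.65, adjusted p = 0.000102, edgeR). DUSP6, an ERK phosphatase, had 39, 27.5 and 37.9 CPM with sh1 and 13.1, 20.2 and 17.9 CPM with NC, and at 1.03 was just past the fold threshold. Its call was lost with library size alone (0.98) and without sh1 library 1, sh1 library 3 or NC library 1. DUSP7, a related phosphatase, changed by 1.03 (0.99 with library size alone). DUSP9 changed by 1.91, and the inhibitors SPRY4 and DUSP5 by -1.19 and -1.22. With library size alone, or without NC library 1, 1 member of the list was higher in place of 3.

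Of 26 immediate early genes 9 were lower and 1 higher (median -0.5). The lower count was 7 or 8 when any 1 library was left out, and the higher count was 2 without sh1 library 2 or NC library 2 and 0 without any other. FOS, a subunit of AP-1, had 4.22, 2.36 and 4.17 CPM with sh1 and 16.8, 13 and 11.2 CPM with NC (log2 fold change -1.93, adjusted p = 0.000225, edgeR). The nuclear receptor NR4A1 changed by -1.63 and the stress factor ATF3 by -1.45. NPAS4, a neuronal activity gene, had in all 1 with sh1 and 85 with NC counts, a ratio of NC over sh1 of 86.2 (exact 95% interval 15.1 to 3444). EGR1 and MYC changed by 0.73 and 0.82 and were not called.

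Writers, erasers and readers of H3K36 methylation mostly stayed under the fold threshold but leaned lower with sh1. Of 23 tested genes 0 were higher and 1, DNMT3B, was lower (median -0.21). Every sh1 library was below every NC library for 13 of the 23, beside 29.8% of all tested genes. For 3 of the 23 every sh1 library was above, beside 32.3% of all. The summed level, DNMT3B included, was 2395 to 2579 CPM with sh1 and 2974 to 3192 CPM with NC. KDM2B, the sister gene of KDM2A, averaged 52.1 ± 4.39 CPM with sh1 and 80.9 ± 9.59 CPM with NC (SD, n = 3 each), a log2 fold change of -0.64 (adjusted p = 0.00279, edgeR) that is under the fold threshold. The methyltransferases NSD1, SETD2, NSD2 and NSD3 changed by 0.03, -0.03, -0.27 and -0.54.

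WNT, TGF-beta and Notch genes were called in both directions, beside 12.1% higher and 7.92% lower among all tested genes. The lower count of the SHH, BMP and TGF-beta list and the higher count of the Notch list were near these shares. Of 43 WNT genes 12 were higher and 7 lower (median 0.38). DKK2, a secreted WNT modulator, had 75.2, 54.7 and 76 CPM with sh1 and 0.718, 0.853 and 0.762 CPM with NC (log2 fold change 6.45, SE 0.22, adjusted p = 2.29e-07, edgeR). WNT7A, a ligand of forebrain progenitors, had 1.04, 1.54 and 1.48 CPM with sh1 and 30, 16.2 and 30.7 CPM with NC. Neither overlapped between the labels. Of 42 genes of the SHH, BMP and TGF-beta pathways 12 were higher and 3 lower. TGFBI, a matrix protein induced by TGF-beta, averaged 561 ± 38.6 CPM with sh1 and 45.9 ± 15.6 CPM with NC (SD, n = 3 each), and TGFBR2 and TGFB3, a receptor and a ligand, changed by 3.17 and 3.07. Of 23 Notch genes 3 were higher and 7 lower. The target DTX1 changed by -2.2, and HEY1, a vascular and mesenchymal target, by 1.36. Without sh1 library 1, 4 WNT genes were lower in place of 7.

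Axon guidance and adhesion genes divided as well, 9 higher and 10 lower of 47. SLIT3, a repellent ligand, averaged 355 ± 13.5 CPM with sh1 and 39.2 ± 9.02 CPM with NC (SD, n = 3 each), and netrin 1 (NTN1) averaged 5.87 ± 0.785 CPM with sh1 and 29.1 ± 4.07 CPM with NC. Of 29 neurogenesis factors 6 were higher and 8 lower. ISL2, of motor and sensory neurons, changed by 2.98, and the proneural factor NEUROG2 by -2.62. In fits without sh1 library 1, NC library 1 or NC library 2, 3 neurogenesis factors were higher.

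Cholesterol synthesis genes fell. Of 22 tested, 10 fell and 0 rose (median -0.92). SREBF2, the regulator of the pathway, had 304, 322 and 337 CPM with sh1 and 689, 648 and 646 CPM with NC (log2 fold change -1.04, SE 0.066, adjusted p = 4.51e-06, edgeR). The groups did not overlap, and reads of SREBF2 and its antisense gene SREBF2-AS1 cannot be told apart without strand. HMGCS1, an early enzyme of the pathway, changed by -1.43. SCD, a fatty acid desaturase, averaged 602 ± 78.8 CPM with sh1 and 1581 ± 68.3 CPM with NC (SD, n = 3 each).

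Interferon response and antigen presentation genes were higher in 15 and lower in 2 of 35 (median 0.87). IFIH1, a sensor of viral RNA, had 11.6, 15.2 and 15.5 CPM with sh1 and 0.607, 1.12 and 1.17 CPM with NC (log2 fold change 3.86, adjusted p = 3.44e-06, edgeR). B2M, the light chain of MHC class I, averaged 336 ± 55 CPM with sh1 and 127 ± 5.65 CPM with NC (SD, n = 3 each). ISG15 and MX1, common interferon targets, changed by -0.83 and 0.34 without a call. IFITM1 had 47.5, 35.8 and 56.3 CPM with sh1 and 283, 224 and 255 CPM with NC. The lower count was 1 in place of 2 without any 1 of 5 libraries, all but NC library 2.

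Of 37 replication and cell cycle genes 0 were higher and 1 lower, the mitotic kinase PLK1 (-1.04), with a median of -0.22. The call of PLK1 was lost without sh1 library 1, sh1 library 3 or NC library 3, and 2 genes were lower without sh1 library 2. MKI67 averaged 160 ± 31.2 CPM with sh1 and 189 ± 10.1 CPM with NC (SD, n = 3 each). Among 23 p53 targets and cell cycle inhibitors 2 were higher and 4 lower, with 67.6, 57.7 and 73.1 CPM with sh1 and 173, 160 and 160 CPM with NC for CDKN1A, the inhibitor p21. Of 29 stress response genes 0 were higher and 4 lower, among them HSPA1A (-1.89) and HSPA1B (-1.92), near-identical copies whose split is uncertain. Every sh1 library was below every NC library for 17 of the 23 p53 and inhibitor genes and 18 of the 29 stress genes, beside 29.8% of all tested genes. The called share was 2.7% of replication and cell cycle genes and 26.1% of p53 and inhibitor genes. It was 13.8% of the stress genes, beside 20% of all tested genes. Hypoxia and glycolysis genes had 2 of 30 higher and 2 lower, a called share of 13.3% beside 20% of all tested genes. The higher count was 0 without sh1 library 3 and 1 without sh1 library 1, NC library 1 or NC library 3. By edgeR, 0 of 13 mitochondrially encoded genes were called (median 0.28).

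Imprinted genes included large single differences, 4 higher and 4 lower of 22. DLK1, a Notch-like membrane protein, averaged 1747 ± 477 CPM with sh1 and 380 ± 12.5 CPM with NC (SD, n = 3 each), and IGF2, a fetal growth factor, averaged 4469 ± 932 CPM with sh1 and 1634 ± 184 CPM with NC. MEG3, expressed from the other parental copy at the DLK1 locus, had 0.494, 0.769 and 0.438 CPM with sh1 and 5.85, 6.99 and 3.64 CPM with NC. H19, the neighbour of IGF2, changed by -0.53 and was not called. Of 11 metallothionein and metal response genes 2 were lower, MT1X (-4.58) and MT3 (-2.63), members of a family of similar sequence. The called share of that list was 18.2%, beside 20% of all tested genes. Without sh1 library 1 or NC library 1, 2 imprinted genes were lower in place of 4. Without sh1 library 2 or NC library 3, 1 metallothionein or metal response gene was higher in place of 0.

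The label sh4 was compared with the same NC libraries, and values for both labels are set side by side. POU5F1 changed by -8.91 with sh1 and by -8.41 with sh4. ALB and COL3A1 changed by 11.65 and 2.87 with sh1 and by 14.09 and 4.07 with sh4. A direct comparison of sh1 over sh4 called 3748 genes (19%). Of the 31 neuron genes 23 were higher and 0 lower with sh1 than with sh4, and of the 42 synapse genes 21 were higher and 0 lower. Lower with sh1 than with sh4 were 19 of 21 epithelium genes, 15 of 22 choroid plexus genes and 15 of 27 mesoderm, endoderm and hepatic genes. NEFM had a log2 fold change of 3.19 of sh1 over sh4 (adjusted p = 0.000754, edgeR), and KRT8 one of -1.83 (adjusted p = 1.48e-05, edgeR).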

How the data were processed

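Libraries of poly(A) RNA were analysed, 3 per organoid label. The submitters' processing notes name STAR, featureCounts and build GRCh38.p13, without versions. The unit of the deposited organoid values is the expected count: about 91% were whole, and all were rounded. CPM are counts over the library total scaled by TMM. The sources used here do not say if strand was used, so overlapping and antisense genes may share reads.

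Genes were filtered with filterByExpr (minimum count 10), scaled by TMM and tested over all 9 organoid libraries with the quasi-likelihood test of edgeR 4.0.16 in R 4.3.3, with Benjamini-Hochberg adjustment over all tested genes. Gene coordinates are those of GENCODE 29 (GRCh38), and sequences those of RefSeq. On simulated counts of 19271 genes for sh1 against NC, 92% of 4-fold and 40% of 2-fold changes were called by the adjusted p and fold threshold together (92% and 68% by the adjusted p alone), with 8 calls among unchanged genes.

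The comparison and the 40 gene lists were chosen with earlier results of these data known. Named genes are KDM2A, the 12 called genes with the highest log2 fold change and the 12 with the lowest (mean log2 CPM at least 3, ranges apart), the 6 largest rises and 6 largest falls of mean CPM, and up to 3 called genes per list and direction by adjusted p. Other genes in the text were chosen after their values were seen. Of the list entries, 66 were not tested, and members that passed the filter through 1 group alone had to differ. Counts of progenitor cells were used for KDM2A alone. Alternatives were DESeq2 1.42.0, other scalings and filters, a replicate block, the sh1 and NC libraries alone, and leaving out each library. Some genes are not reported here.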

Additional observations from a re-analysis of the deposited data

Results flagged for a closer look

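The KDM2A effect of the label sh1 differed between the systems of the series, by 1.12 on the log2 scale (organoids minus neural progenitor cells, SE 0.091, adjusted p = 1.48e-10, edgeR). The log2 fold change of sh1 over NC was 0.14 in organoids, where it was not called, and -1.02 in progenitor cells. The difference was 1.24 with library size alone and 1.12 in the sh1 and NC libraries alone. The model used 10034 genes that were shared by the tables of both systems and passed the count filter. The progenitor cell table lists far fewer genes than the organoid table, and the part of this in the difference was not tested. Groups of 3 libraries were not searched for single libraries that stand apart.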

How the results depend on the processing

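The number of genes called higher was 2131 to 2530 and lower 1329 to 1693 over all 15 alternatives, against 2385 and 1561, and KDM2A was not called in any of them (log2 fold change 0.09 to 0.17). With DESeq2, 2349 genes were higher and 1557 lower, and 13 adjusted p-values were not given. With the sh1 and NC libraries alone, 2167 were higher and 1646 lower. Other scalings moved the median of all genes by at most -0.044. The replicate numbers gave no sign of pairing, as deviations of same-numbered libraries correlated at -0.01, -0.10 and 0.04. So few libraries per label cannot show that pairing was absent. With a replicate block 2297 genes were higher and 1474 lower, and KDM2A had 0.14 (adjusted p = 0.174, edgeR). Of 196 named genes other than KDM2A, 181 were tested and kept their call in each of the 15 alternatives. FGF8 was not tested with the filter of 1 CPM or with the sh1 and NC libraries alone and kept its call in the others. The other 14 lost their call in at least 1 alternative without changing direction. These were DUSP6, DUSP7, DUSP10, MX2, CA9, EGR2, NR4A2, NDRG1, SOX9, MAGEL2, PLK1, CYP26A1, CYP26B1 and SOX6. Leaving out 1 library moved 15 of the 80 list counts by over 1.5 times, all of them counts of 7 or fewer, and the values stand beside those counts. In at least 1 of the other alternatives the lower counts of the endothelium, astroglia and retina lists and the higher count of neuron genes were 2 in place of 1. The lower interferon count was 1 in place of 2 with no filter or a replicate block, and the higher hypoxia count was 1 in place of 2 with the block. In the leave-outs, the medians of the cascade genes (-0.06 to 0.01) and of the muscle genes (-0.2 to 0.03) changed sign. Those of the cell cycle genes (-0.41 to -0.14) and the midbrain and hindbrain genes (0.23 to 0.66) moved by over 1.5 times. Further medians did so too, among them those of mitochondrially encoded (0.17 to 0.29), retina (0.05 to 0.78) and neurogenesis genes (-0.69 to -0.25). Others were those of cartilage (0.16 to 0.48), imprinted (0.05 to 0.19) and epithelium genes (-0.90 to -0.43). Genes with few counts in a group limit what can be said of their fold, and leaving a group with 2 libraries limits its spread.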
